A study of Homo sapiens with 3 samples.

Results

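The genes examined were NEAT1, the long non-coding RNA that builds paraspeckles, and 8 protein genes whose products are known from paraspeckles or from NEAT1-containing complexes: SFPQ, NONO, PSPC1, RBM14, DAZAP1, CPSF6, NUDT21 and HEXIM1. Every deposited cluster that carried 1 of these 9 gene names was taken. Of the 9 genes, 8 had at least 1 cluster, among 13550 gene names with a cluster in any replicate. They held 339 of 388807 clusters, with 122 in replicate 1, 95 in replicate 2 and 122 in replicate 3. The libraries are PAR-CLIP of MATR3, matrin 3, made with a MATR3 antibody. PAR-CLIP crosslinks a protein to RNA through a photoreactive uridine analogue and sequences the RNA that is pulled down with it. The cells were HEK293, an established line derived from human embryonic kidney. All 3 libraries are biological replicates of 1 group, with the genotype HEK293-WT and the treatment None, and no control or input library was analysed here. A cluster is a stretch of RNA covered by overlapping reads, and crosslinked uridines appear in it as T-to-C changes.

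Paraspeckles are nuclear bodies assembled on NEAT1. The gene gives a short and a long transcript from the same start, and the long one is the scaffold, with its ends at the surface of the body and its middle in the core. SFPQ, NONO and PSPC1 are related RNA-binding proteins of the DBHS family that coat and stabilise the long transcript. RBM14 and DAZAP1 are needed for the bodies to form, CPSF6 and NUDT21 form the cleavage factor that acts on the polyadenylation site of the short transcript, and HEXIM1, an inhibitor of the elongation kinase P-TEFb, is found with NEAT1, the DBHS proteins and DNA-PK in a complex that acts in DNA sensing. MATR3 is a nuclear matrix protein that binds pyrimidine-rich RNA, and it has been found with paraspeckle proteins.

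NEAT1 lies on chromosome 11, plus strand, at chr11:65422774-65445540 in hg38 (ENSG00000245532.11 in GENCODE release 44), and spans 22767 nt. Its clusters merged into 44 sites, of which 2 were found in all 3 replicates and 6 in 2 replicates. The stretches shared by all clusters of these 8 sites, or their middle 30 nt where the stretch was longer, are printed because they are the places where separate libraries met. They are given 5′ to 3′ on the plus strand of hg38, with runs of at least 5 C or T in capitals.
NEAT1 site in 2 replicates, chr11:65426937-65426966: gTCTTTgggaggctggaatgtgcctgggat
NEAT1 site in 2 replicates, chr11:65427798-65427827: gattacaaaaCTCTTgCTTCCaccctggaa
NEAT1 site in 3 replicates, chr11:65430276-65430300: TCTCCCTTTTCTgtggctggctgcc
NEAT1 site in 2 replicates, chr11:65430700-65430729: acacatgtaTCCCCTggagtggcattgcct
NEAT1 site in 2 replicates, chr11:65431543-65431568: gaggTTCCCacaTCCTCCCCaacact
NEAT1 site in 3 replicates, chr11:65436394-65436410: ctttgctagTTTCCTTC
NEAT1 site in 2 replicates, chr11:65436459-65436488: acctgcacatgtttgaacttcaaaccctgt
NEAT1 site in 2 replicates, chr11:65443816-65443840: ttctgctcattggctgagtgcagtg
A run of at least 5 pyrimidines was present in 6 of the 8 stretches, both of those found in 3 replicates among them. None of the 8 held ATCTT, the DNA letters of AUCUU, a motif known for MATR3. Such a run was common in whole clusters, in 78.7% ± 1.25 of all clusters with a gene name (SD, n = 3), so its presence here is a description of these sequences. ATCTT occurred in 9.34% ± 0.394 of those whole clusters, so its absence from 8 short stretches is a description as well.

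MATR3 clusters on NEAT1 were listed only in the part of the gene that belongs to the long transcript. GENCODE lists 9 NEAT1 transcripts, of which 8 end at or before position 65426513 and 1 runs from 65422798 to 65445540. All 54 NEAT1 clusters, 21 in replicate 1, 16 in replicate 2 and 17 in replicate 3, began beyond 65426513, in a zone of 19027 nt or 83.6% of the span. They held 439, 266 and 264 reads in replicates 1, 2 and 3. In the first 3740 nt, 16.4% of the span and shared by the short transcripts, no cluster was listed in any of the 3 replicates, on either strand or under any name. The first cluster started at 65426527, 14 nt past the last short end. Upstream of the gene, clusters were listed again: the 5000 nt before its start held 5 clusters in each replicate on the opposite strand, with 47, 46 and 65 reads, and 1 cluster of 11 reads on the same strand in replicate 1. Since the tables list only clusters above a minimum, weaker binding in the first 3740 nt was not detectable here.

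The base makeup and the uniqueness of the 2 zones were measured beside this. None of the 30-mers of the shared zone occurred elsewhere in hg38 (0%), against 6.33% of those of the long zone. T made up 27.8% of the shared zone and 32.5% of the long zone, and C and T together made up 46.1% and 53.3%. The part that base makeup and transcript level had in the layout was not tested.

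**Figure D1:**
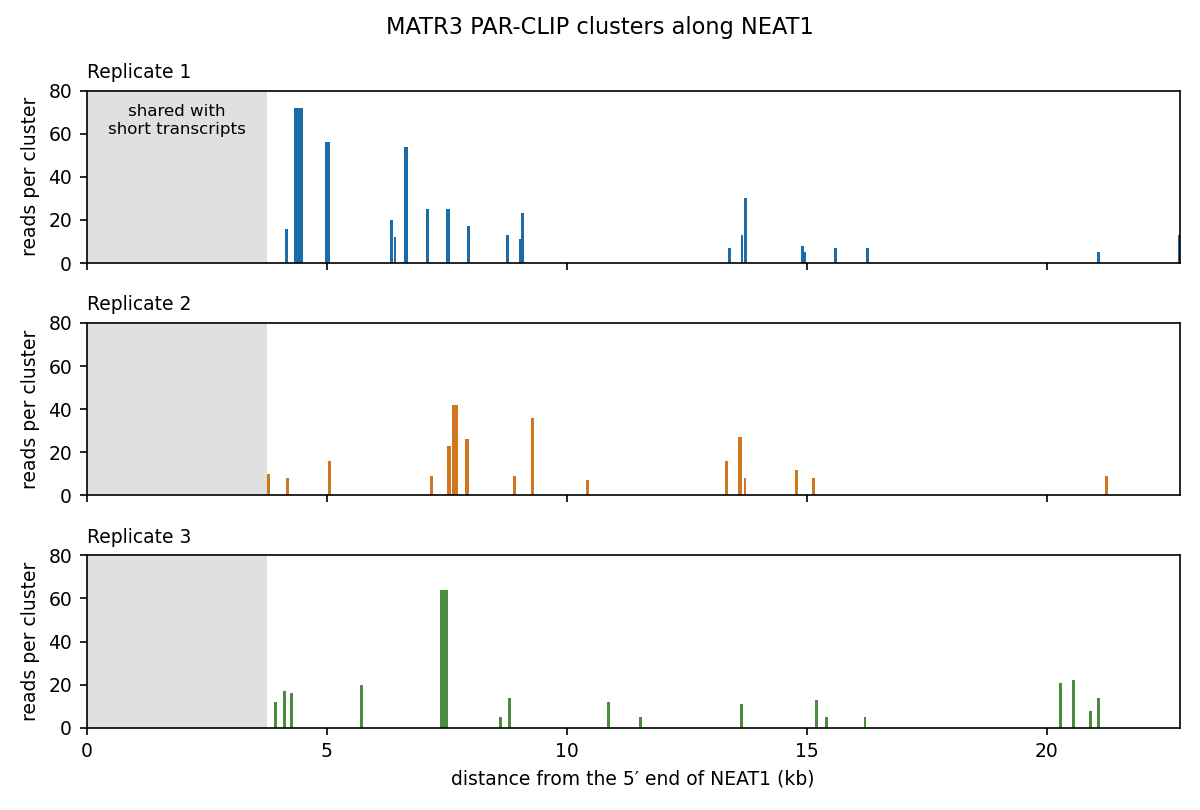
Reads per MATR3 cluster (vertical axis) along NEAT1 (horizontal axis, kb from the 5′ end), 1 panel per replicate; bar width is cluster length, with a drawn minimum of 60 nt. The grey zone, the first 3740 nt shared with the short transcripts, holds 0 clusters in every panel, and the highest bars of 72, 42 and 64 reads stand between 4 and 8 kb.

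Within the long zone the clusters were uneven. From 4 to 6 kb past the 5′ end the 3 replicates together listed 8 clusters with 221 reads, and from 6 to 8 kb they listed 11 clusters with 317 reads. From 12 to 14 kb there were 7 clusters with 112 reads, and from 20 to 22 kb there were 6 clusters with 79 reads, of which 65 came from replicate 3. From 18 to 20 kb no cluster was listed. The clusters covered 4.28% ± 0.836 of the span (SD, n = 3). The cluster with most reads was a different one in each library: 72 reads at chr11:65427093-65427273 in replicate 1, 42 at chr11:65430383-65430504 in replicate 2, and 64 at chr11:65430136-65430300 in replicate 3. A further cluster of 56 reads lay at chr11:65427741-65427836 in replicate 1.

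Both NEAT1 sites found in all 3 replicates lay in the single exon of the long transcript. The site at chr11:65430136-65430359 had 25, 23 and 64 reads in replicates 1, 2 and 3, and it includes the leading cluster of replicate 3. The site at chr11:65436338-65436429 had 13, 27 and 11 reads. The positions of highest signal within the sites lay up to 199 nt apart in the first and up to 49 nt apart in the second, so the replicates shared these regions and not a single position.

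Recurrence was compared with that of all clusters that carry a gene name. A cluster counted as recurrent when it shared 1 nt or more, on its own strand, with a cluster from another replicate. On NEAT1 8 of 21, 6 of 16 and 4 of 17 clusters recurred, or 38.1%, 37.5% and 23.5%, a mean of 33.0% ± 8.24 (SD, n = 3). For all named clusters the mean was 21.7% ± 0.675. NEAT1 was higher by 16.6, 16.3 and 1.03 percentage points, a mean of 11.3 ± 8.90, in 3 of 3 replicates (exact two-sided sign-flip permutation test, p = 0.25, the smallest that 3 replicates allow). Replicate 3 lay close to the level of all clusters, and without replicate 1 the mean difference fell to 0.0873 points. NEAT1 clusters were also longer than all named clusters, by 5.80 ± 2.53 nt in 3 of 3 replicates. The part of cluster length and density in recurrence was not tested.

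Per length, NEAT1 ranked in the upper part of the genes with clusters. Levels are given as normalised reads, the reads in clusters of a gene per 1000000 reads in clusters with a gene name, and are compared between genes only per kb of gene span. NEAT1 had 303, 200.3 and 194 normalised reads in replicates 1, 2 and 3, a mean of 233 ± 61.2 (SD, n = 3), with replicate 1 highest. Per kb it had 13.3, 8.80 and 8.53 normalised reads, a mean of 10.2 ± 2.69. That placed it at rank 477 of the 8466 genes that had clusters in all 3 replicates and an annotated span, whose median was 1.54 per kb. Among the 249 long non-coding RNA genes of that set, with a median of 0.966 per kb, it ranked 27. Having a cluster in all 3 replicates was itself uncommon for annotated long non-coding RNA genes, at 1.32% of 18809.

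The genes most like NEAT1 in normalised reads per kb over the 3 replicates, by Euclidean distance on the log2 scale, were SRPRA, FAM168B and MRPL37, at distances of 0.15, 0.18 and 0.19. SRPRA had 12.1, 8.61 and 8.89 per kb, FAM168B had 13.9, 8.90 and 9.61, and MRPL37 had 12.1, 9.45 and 9.02. Their likeness to NEAT1 is what chose them.

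MALAT1, the abundant nuclear RNA of the neighbouring gene (chr11:65497640-65508073), served as a comparison. It had 7, 1 and 10 clusters and 8.54, 2.02 and 23.7 normalised reads per kb, a mean of 11.4 ± 11.1 (SD, n = 3), which is 5.28 without replicate 3. The ranges of the 2 RNAs overlapped, with MALAT1 above NEAT1 in replicate 3 and below it in replicates 1 and 2. None of the 14 MALAT1 sites was found in all 3 replicates.

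Fewer of the reads on NEAT1 carried the crosslink mark than elsewhere. The share of reads with a T-to-C change was 58.9%, 59.0% and 65.2% in replicates 1, 2 and 3, a mean of 61.0% ± 3.57 (SD, n = 3). Over all named clusters it was 86.1% ± 0.635. The difference of -25.0 ± 3.38 points was negative in 3 of 3 replicates, without overlap between the 2 sets of values (exact two-sided sign-flip permutation test, p = 0.25). The share also varied with the class and the read count of a cluster, so 4 narrower references, chosen after seeing the data, were set beside it. Against other clusters in exons of long non-coding RNAs NEAT1 was lower by 22.1 ± 3.18 points, and against named clusters of the same read count by 21.3 ± 2.45. Against clusters in nuclear coding exons it was lower by 20.4 ± 4.40, and against clusters in 3′ UTRs by 17.3 ± 4.15, in 3 of 3 replicates each time.

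Among the 2917 genes with at least 100 reads in each replicate, whose median share was 86.8%, 4 had a lower share than NEAT1: DCAF7, MT-ATP6, NUCKS1 and TMEM109, which are named here after their values were seen. At the level of single clusters, 9 of 54 on NEAT1 (16.7%) had the mark on every read, against 58.2% of all named clusters. RBM14, at 8.33%, and MALAT1, at 11.1%, were lower still, DAZAP1 had 23.1%, and PSPC1 was highest of the genes at 64.3%. These shares were not matched on read count. The median cluster had 13 reads on NEAT1, and 9, 8 and 9 over all clusters of replicates 1, 2 and 3. The single NEAT1 clusters ranged from 31.8% to 100%, with a median of 69.6%, beside medians of 69.2% on RBM14 and 62.6% on MALAT1. Measured per T instead of per read, 7.19% ± 0.792 of T positions in NEAT1 reads were converted, against 11.0% ± 0.364 over all named clusters, a difference of -3.77 ± 0.471 points in 3 of 3 replicates (exact two-sided sign-flip permutation test, p = 0.25). T content moved little beside this, at 32.1% ± 0.744 in NEAT1 clusters and 31.3% ± 0.892 in all. MALAT1 stood near NEAT1, with shares of 56.6%, 67.9% and 58.6% of reads. Shares below that of all named clusters were not particular to these RNAs. SFPQ had 84.8%, 78.2% and 77.4%, NONO had 78.4%, 75.1% and 77.3%, RBM14 had 68.3%, 77.2% and 71.8%, and DAZAP1 had 75.9%, 74.1% and 81.0%, each below it in 3 of 3 replicates. PSPC1, at 88.3% ± 1.27, and CPSF6, at 88.3% ± 3.03 (SD, n = 3), were near it, and NUDT21 ranged from 73.2% to 100%. RNA abundance was not measured in these tables, and its part in the low share was not tested.

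**Figure D2:**
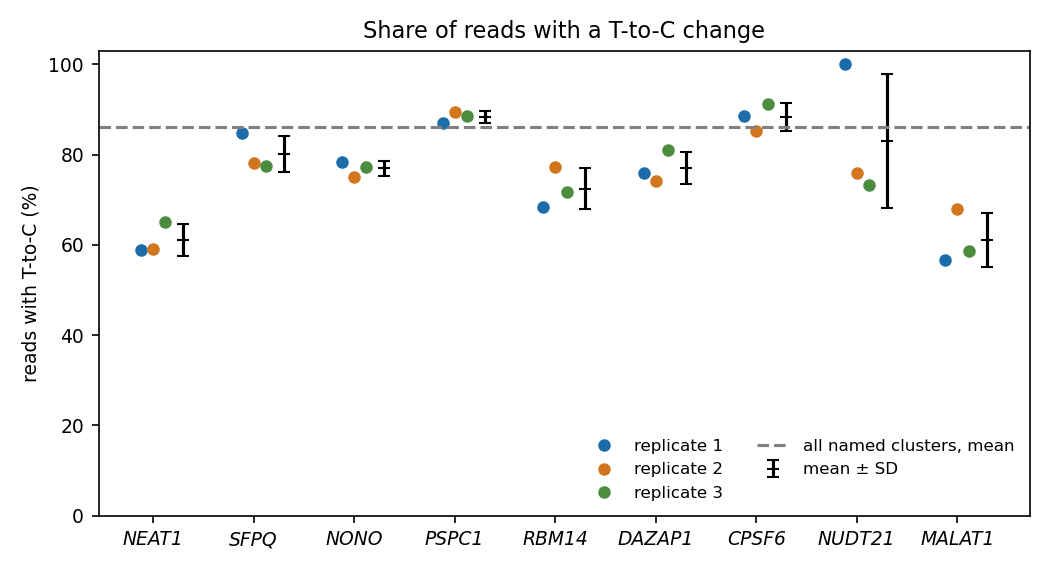
Percent of reads with a T-to-C change (vertical axis, from 0) in the clusters of each gene and of MALAT1, as points for the 3 replicates with mean ± SD beside them; the dashed line is the mean of all named clusters, 86.1%. SFPQ, NONO, RBM14 and DAZAP1 lie below the line in all 3 replicates, NEAT1 at 58.9% to 65.2% and MALAT1 at 56.6% to 67.9% lie farther below it, and PSPC1 and CPSF6 lie around it.

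The protein genes had clusters in every library with 1 exception. SFPQ, NONO, PSPC1, RBM14, DAZAP1, CPSF6 and NUDT21 had clusters in all 3 replicates, and HEXIM1 had none in any. Of all 20018 protein-coding genes, 40.7% had a cluster in all 3 replicates, and of those with spans between the shortest and the longest of the 8 genes, 42.0%. With 8 genes of chosen names this count is a description. In normalised reads per kb DAZAP1 stood apart, with its lowest replicate at 22.1 and the highest value of any other of the genes at 17.3, in RBM14 replicate 3. Below it came RBM14, NEAT1, SFPQ, NONO, CPSF6, NUDT21 and PSPC1 in the order of their means. That order depends on the annotated span as divisor. All 30 named NONO clusters lay inside its main transcript of 17534 nt, while its span is 46709 nt. A shorter divisor would place NONO higher, so its rank below NEAT1 and SFPQ holds for levels per span only. RBM14 ranged from 3.51 to 17.3 and overlapped with all of NEAT1's values. Counted by gene name, NEAT1, at 8.53 to 13.3, lay above SFPQ, at 3.44 to 7.63, without overlap. Below SFPQ each gene overlapped in range with the next. The SFPQ values leave out 8 clusters with no name on its strand, with 39, 0 and 184 reads in replicates 1, 2 and 3. With them SFPQ has 155 ± 104 normalised reads in place of 101 ± 37.4, so the gap to NEAT1 holds for named clusters only.

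**Figure D3:**
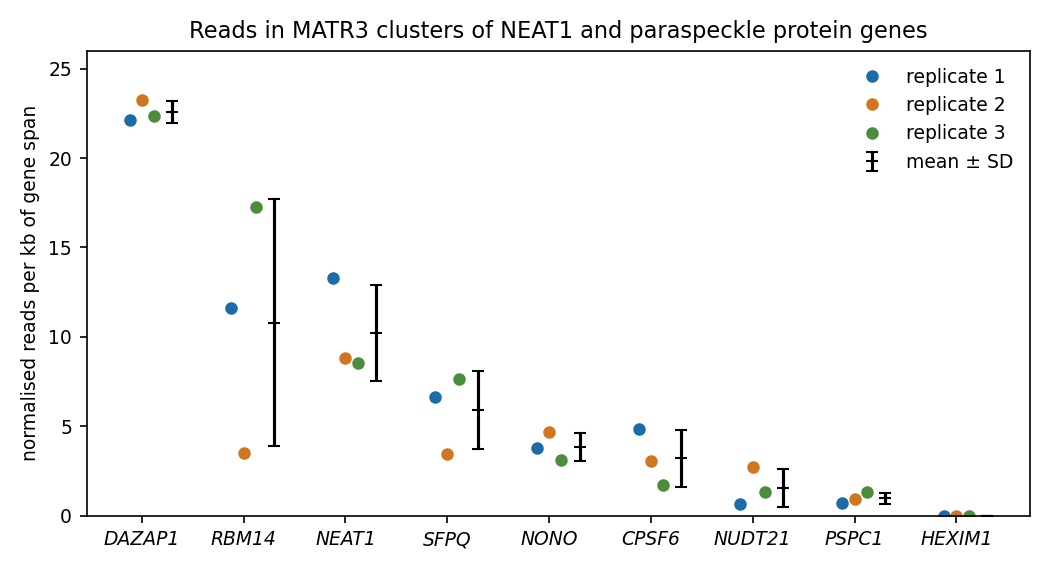
Normalised reads per kb of gene span (reads per 1000000 reads in named clusters, divided by the span in kb; vertical axis from 0) of NEAT1 and the 8 protein genes, as points for the 3 replicates with mean ± SD beside them, in order of the mean. Clusters are counted by gene name, which leaves out the clusters with no name in the SFPQ span. DAZAP1 at 22.1 to 23.3 lies above all others, NEAT1 lies above the 3 values of SFPQ, the other neighbours overlap, and HEXIM1 is at 0 in each replicate.

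SFPQ, a splicing factor that pairs with NONO, lies on chromosome 1, minus strand, at chr1:35176378-35193446. It had 14, 5 and 14 clusters and 113, 58.7 and 130 normalised reads in replicates 1, 2 and 3, a mean of 101 ± 37.4 (SD, n = 3), with replicate 2 lowest. Its clusters gathered at the 3′ side of the gene. Of its 33 clusters, 8 were in the 3′ UTR class, 9 in introns and 11 in a processed-transcript class beyond the main transcript. Intron 9 held 7 of the 9 intron clusters, 3 in replicate 1 and 4 in replicate 3. The leading cluster, at chr1:35183656-35183802 in the 3′ UTR, had 54 reads in replicate 1, and it was part of a site with 61 reads in replicate 1, 16 in replicate 2 and none in replicate 3. The stretch below is shown because clusters of replicates 2 and 3 both covered it, with 10 and 11 reads and their positions of highest signal 1 nt apart.
SFPQ 3′ UTR site in 2 replicates, minus strand, chr1:35183889-35183918: tgtttggcatataggaagcacgctggtgct
It holds no run of at least 5 pyrimidines.

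Past the 3′ end of the SFPQ main transcript (35182936 to 35193145 in GENCODE) the clusters continued. There were 11 clusters under the name SFPQ and 8 with no gene name on the same strand within the annotated gene, 7 in replicate 1, 2 in replicate 2 and 10 in replicate 3. Together they held 325 of 642 reads, 50.6% of the reads on that strand of the gene, and reached 6391 nt beyond the transcript's end. The annotated gene ends at 35176378, so clusters with no name were not sought farther. If the clusters with no name are counted, SFPQ has 155 ± 104 normalised reads in place of 101 ± 37.4. The next leading clusters under the name SFPQ were 29 reads at chr1:35180056-35180129 in this downstream zone in replicate 2, and 22 reads each at chr1:35183050-35183125 in the 3′ UTR in replicate 1 and at chr1:35184774-35184878 in intron 9 in replicate 3.

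PSPC1, paraspeckle component 1, also had clusters past the end of its main transcript. It lies on chromosome 13, minus strand, at chr13:19674752-19783019, and had 12, 13 and 17 clusters and 73.9, 99.4 and 142 normalised reads, a mean of 105 ± 34.4 (SD, n = 3). It is the longest of the genes, at 108268 nt, and per kb it had 0.971 normalised reads, below the median of 1.54 over all genes. Of the 30-mers of its span, 27.9% occurred elsewhere in hg38, beside 35.4% for NONO and at most 12.6% for the other genes. The part of repeated sequence in the levels and places of clusters was not tested. Of the 42 PSPC1 clusters, 28 were in introns and 14 in a nonsense-mediated-decay transcript class. Those 14, with 7 in replicate 1, 4 in replicate 2 and 3 in replicate 3, all lay past the end of the main transcript at 19702500. They held 139 of 432 reads, or 32.2%, and reached 27692 nt beyond it, close to the end of the annotated gene at 19674752. Inside the main transcript, intron 2 held 13 clusters and intron 6 held 8, while introns 1 and 3 held none. The leading clusters were 33 reads at chr13:19761779-19761891 and 24 reads at chr13:19761231-19761296, both in intron 2 in replicate 3, and 20 reads at chr13:19677370-19677423 downstream in replicate 2. Of the 42 clusters, 19 rested on fewer than 3 distinct read sequences, the highest number of any of the genes.

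NONO, the DBHS protein that pairs with SFPQ and with PSPC1, lies on the X chromosome, plus strand, at chrX:71254814-71301522. It had 11, 11 and 8 clusters and 176, 218 and 146 normalised reads, a mean of 179.8 ± 36.1 (SD, n = 3). Past its main transcript's end at 71301168 lay only 2 clusters, both with no gene name. The annotated gene ends at 71301522, soon after that. In SFPQ and PSPC1 the annotated gene runs much farther past the main transcript. Clusters with no name were sought only at the annotated spans, so the downstream counts of the 3 DBHS genes cannot be compared. Of its 30 clusters 21 were in introns, with 13 in intron 2, where the replicates had 4, 5 and 4. Its strongest clusters were at the 3′ end: 58 reads at chrX:71300588-71300655 in replicate 1 and 99 at chrX:71300262-71300380 in replicate 2, both in the 3′ UTR, and 95 at chrX:71299979-71300071 in the coding part of exon 12 in replicate 3. The 3′ UTR class had 105, 130 and 13 reads in replicates 1, 2 and 3, so that replicate 3 was low there and high in the coding part next to it. The 30 clusters fell into 29 sites, and the single site found in 2 replicates lay in intron 3, with 15 reads in replicate 1 and 31 in replicate 2. Its sequence is shown as the place in NONO where 2 libraries met.
NONO intron 3 site in 2 replicates, plus strand, chrX:71291480-71291509: gctgCTTCCTTgaattgcttaaTTTTTCTC
The capitals mark 2 pyrimidine runs.

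DAZAP1, an RNA-binding protein that takes part in splicing, had the highest level per kb of the genes. It lies on chromosome 19, plus strand, at chr19:1407569-1435687. It had 37, 29 and 42 clusters and 622, 654 and 628 normalised reads, a mean of 635 ± 17.1 (SD, n = 3). The 3 replicates lay close together. Per kb it had 22.1, 23.3 and 22.3 normalised reads, a mean of 22.6 ± 0.607, and ranked 74 of 8466 genes. Its clusters covered 9.61% ± 0.340 of the gene and numbered 1.28 per kb per replicate, against a median of 0.201 over all genes.

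Of 108 DAZAP1 clusters 95 were in introns and 8 crossed an intron and coding boundary. Intron 1, of 9697 nt, held 50 clusters, 20 in replicate 1, 9 in replicate 2 and 21 in replicate 3, with 1133 reads. Intron 7, of 2881 nt, held 15 clusters with 423 reads, a similar density at 1.74 clusters per kb per replicate beside 1.72 in intron 1. Intron 6, of 3481 nt, held 1 cluster, with 128 reads in replicate 3, at its 5′ edge. The leading clusters were not the same across libraries. Replicate 1 had 159 reads at chr19:1422234-1422527, across coding exon 6, and replicate 3 had 128 at the overlapping chr19:1422411-1422597, while replicate 2 had none there. Replicate 2 had its 167 reads at chr19:1429169-1429589 in intron 8, where replicate 1 had 10 and replicate 3 had none in the same site.

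**Figure D4:**
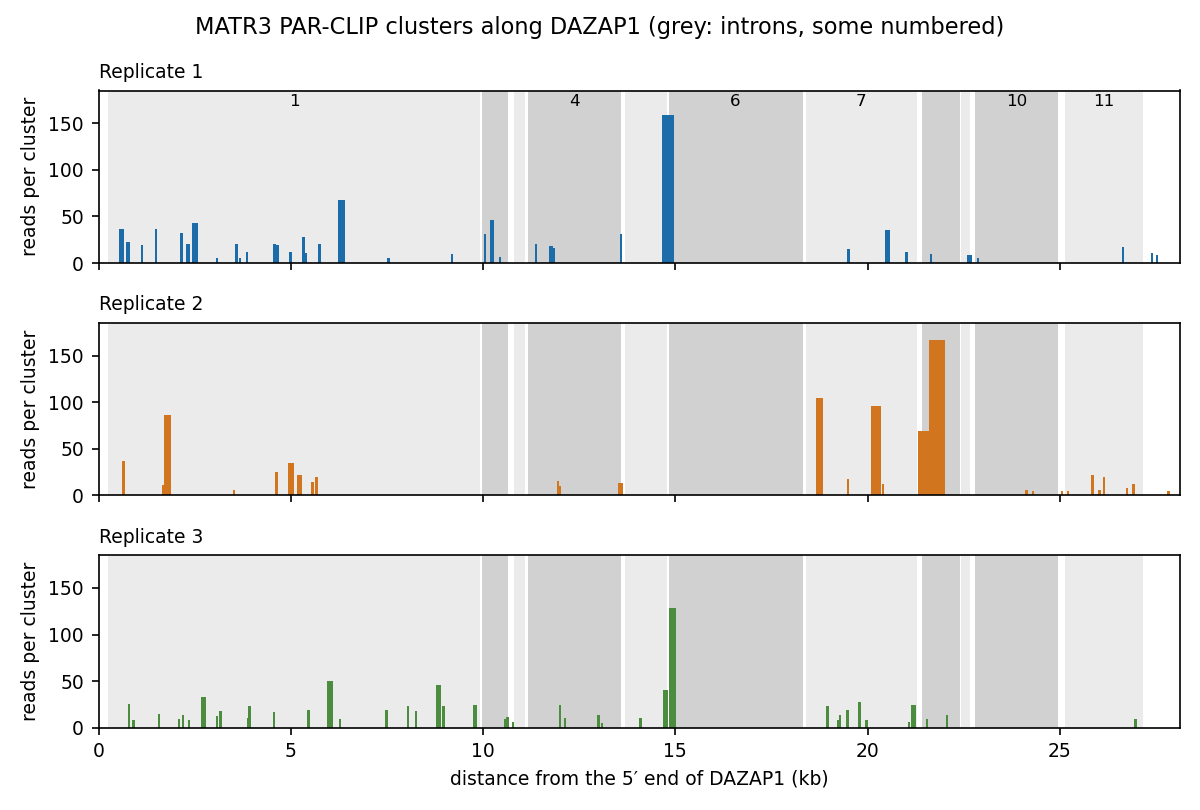
Reads per MATR3 cluster (vertical axis) along DAZAP1 (horizontal axis, kb from the 5′ end), 1 panel per replicate; grey bands in 2 shades are the introns of the main transcript, with the longer ones numbered, and bars have a drawn minimum width of 60 nt. Clusters are spread over intron 1 in all 3 panels, and the highest bars, 159 and 128 reads around coding exon 6 and 167 reads in intron 8, are absent or low in at least 1 other panel.

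Of the 89 DAZAP1 sites 16 were found in 2 replicates and 1 in all 3. The latter lay in intron 7 at chr19:1427015-1427091 and had 15, 18 and 19 reads in replicates 1, 2 and 3. The middle of its shared stretch is shown as the only DAZAP1 sequence reached by each library.
DAZAP1 intron 7 site in 3 replicates, plus strand, chr19:1427047-1427076: ttagattgggttgcagacttcattaattcc
It holds no run of at least 5 pyrimidines and no ATCTT. Over the 17 stretches of DAZAP1 found in more than 1 replicate, 7 held such a run and 0 held ATCTT. The stretch at chr19:1412854-1412857 has only 4 nt and could hold neither. Of all whole clusters with a gene name, 78.7% held such a run and 9.34% held ATCTT. Those clusters were not matched in length to the short stretches, so both counts are descriptions of these sequences. DAZAP1 clusters were poor in T, at 21.9% of bases, and had the highest conversion per T of the genes, 14.0% ± 0.434 (SD, n = 3). Every listed cluster has at least 2 conversion locations, and the part of that minimum in conversion per T was not tested. The T content of the gene was low as a whole, at 23.3%.

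RBM14, a coactivator with prion-like sequence, lies on chromosome 11, plus strand, at chr11:66616626-66629934. It had 11, 3 and 10 clusters and 155, 46.7 and 229.6 normalised reads, a mean of 144 ± 92.0 (SD, n = 3). Replicate 2 was far below the other replicates. Intron 1 of the 3-exon main transcript held 14 of the 24 clusters, 8 in replicate 1, 1 in replicate 2 and 5 in replicate 3. The strongest cluster, 131 reads at chr11:66626973-66627147 in the 3′ UTR, was seen in replicate 3 alone. It was followed by 61 reads at chr11:66623543-66623663 and 45 reads at chr11:66621233-66621357, both in intron 1 in replicate 3. The 1 RBM14 site found in 2 replicates was in the 5′ UTR, with 11 and 6 reads. A further 4 clusters on the same strand carry the read-through name RBM14-RBM4 and are not counted here. RBM14 clusters resembled those of DAZAP1 in T content, at 22.8%, and in conversion per T, at 12.5% ± 1.86.

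The cleavage factor genes had fewer reads per kb than DAZAP1 and NEAT1. CPSF6, its larger subunit, lies on chromosome 12, plus strand, at chr12:69239569-69274358. It had 14, 13 and 10 clusters and 169, 107 and 58.9 normalised reads, a mean of 112 ± 55.3 (SD, n = 3). Introns held 28 of its 37 clusters, with 10 in intron 9, 9 in intron 1 and 6 in intron 3. Its one site found in all 3 replicates was instead at coding exon 6, at chr12:69258655-69258791, with 28, 46 and 13 reads. The 3 clusters of that site form a chain, and no base was covered by all 3, so no shared stretch is printed. Other leading clusters were 44 reads at chr12:69260932-69261062 in intron 8 and 35 reads at chr12:69249621-69249718 in intron 1, both in replicate 1.

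NUDT21, the smaller subunit, which recognises UGUA in RNA, lies on chromosome 16, minus strand, at chr16:56429133-56452199. It had the fewest clusters of the 8 genes with any, at 2, 5 and 4, and had 14.5, 62.5 and 30.2 normalised reads, a mean of 35.7 ± 24.5 (SD, n = 3), which is 22.3 without replicate 2. Its 11 clusters formed 11 sites, none of them found in more than 1 replicate. The 3′ UTR held 5 clusters, 0 in replicate 1, 2 in replicate 2 and 3 in replicate 3, and introns held 6. Intron 3, its longest at 6879 nt, held none. The leading clusters were 31 reads at chr16:56437147-56437217 in intron 4 and 22 reads at chr16:56430923-56430966 in the 3′ UTR, both in replicate 2, and 16 reads at chr16:56431018-56431052 in the 3′ UTR in replicate 3.

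HEXIM1, at chr17:45148475-45152099 on the plus strand, had no cluster in any of the 3 replicates. It is the shortest of the genes, at 3625 nt, and its main transcript is a single exon. Of the 2018 protein-coding genes no longer than HEXIM1, 112 (5.55%) had a cluster in all 3 replicates and 344 (17.0%) in any. Binding below the minimum of the deposited tables was not detectable.

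**Figure D5:**
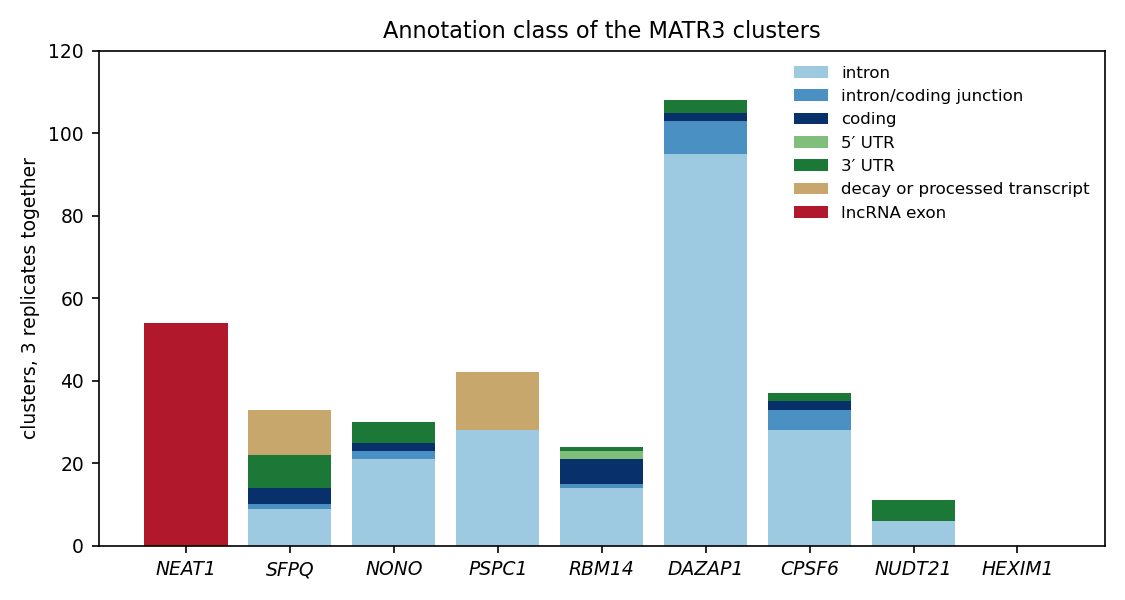
Number of clusters (vertical axis, 3 replicates together, from 0) of each gene by the deposited annotation class, with stop-codon clusters counted as coding. NEAT1 has 54 clusters, all in the long non-coding exon class. Introns make up most clusters of DAZAP1, NONO, PSPC1, CPSF6, RBM14 and NUDT21. SFPQ and PSPC1 have 11 and 14 clusters in processed or decay transcript classes.

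Several properties of the genes as a set were compared with all named clusters within each replicate. The set values pool clusters or reads, so genes with many of them weigh most. DAZAP1 held 108 of the 339 clusters and 635 of the 1544 normalised reads, and NEAT1 held 54 clusters and 233 normalised reads. Across the 13 comparisons the exact two-sided sign-flip permutation test gave p = 0.25 in 11, which is 0.295 after Benjamini-Hochberg adjustment, and so no difference could pass a threshold of 0.05 with 3 replicates. Among clusters in intron, coding or UTR classes, introns made up 75.3%, 76.7% and 79.6% for the protein genes and 89.4%, 88.8% and 88.4% for all genes. The means were 77.2% ± 2.20 and 88.9% ± 0.519, and the difference was -11.7 ± 2.69 points, negative in 3 of 3 replicates without overlap. Single genes differed in this. Introns held 95 of 108 DAZAP1 clusters, near the share for all genes, and all 28 PSPC1 clusters in these classes. Shares were lower in NONO (21 of 30), CPSF6 (28 of 37), RBM14 (14 of 24) and NUDT21 (6 of 11). On SFPQ, 9 of the 22 clusters inside the main transcript were in introns.

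Recurrence of the clusters of the whole set was 25.4%, 24.2% and 19.7%, a mean of 23.1% ± 3.03, and differed from the 21.7% ± 0.675 of all clusters by 1.35 ± 3.65 points, which is within the spread between replicates (exact permutation test, p = 0.5, adjusted p = 0.542). Without replicate 1 the sign turned, to -3.62 points. Of the 297 sites of the set 261 were found in 1 replicate, 32 in 2 and 4 in all 3, or 1.35%, beside 1.21% of 298168 sites of all genes. The genes differed among themselves. DAZAP1 had 36 of 108 clusters in overlap with another replicate, PSPC1 had 10 of 42 and SFPQ 7 of 33, while CPSF6 had 3 of 37, NONO 2 of 30, RBM14 2 of 24 and NUDT21 0 of 11. An overlap of 1 nt is easier to reach where clusters cover more of a gene. In the same order of genes, clusters covered 9.61%, 0.560%, 3.18%, 1.63%, 1.20%, 3.95% and 0.672% of the span. The part of coverage in recurrence was not tested.

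The letters ATCTT occurred in 21 of the 339 clusters. The share per replicate was 7.38%, 4.21% and 6.56%, a mean of 6.05% ± 1.64, against 9.34% ± 0.394 over all named clusters. The difference was -3.29 ± 1.32 points, negative in 3 of 3 replicates, although the clusters of the set were longer, at a mean of 59.2 ± 6.47 nt against 48.2 ± 2.72 nt. The genes differed: on DAZAP1 4 of 108 clusters held it, on NEAT1 3 of 54, on PSPC1 6 of 42 and on NONO 4 of 30. On SFPQ 2 of 33 held it, on CPSF6 2 of 37, and on RBM14 and NUDT21 none. C and T together made up 52.4% ± 0.182 of the bases of the set and 57.2% ± 0.857 of those of all clusters, a difference of -4.73 ± 1.04 points in 3 of 3 replicates. NEAT1 was closer to all clusters, at 56.2% ± 0.713, and so were several protein genes. Over the 3 replicates together NONO had 57.0%, PSPC1 56.8%, NUDT21 56.1% and CPSF6 55.4%. The low values were those of DAZAP1 at 50.4%, SFPQ at 48.2% and RBM14 at 46.4%. Conversion per T over the set did not separate from that of all clusters, at 11.0% ± 0.824 against 11.0% ± 0.364, with DAZAP1 above that level and NEAT1 below it. Without replicate 1 the difference was 0.264 points, and with all 3 it was -0.0014 ± 0.462 (exact permutation test, p = 1). Measured per read, the set differed: its share of reads with T-to-C was lower than that of all named clusters by 10.3 ± 1.68 points (exact permutation test, p = 0.25).

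A wider list of 33 further genes whose proteins are known from paraspeckles was counted by the same rule. Clusters were found in all 3 replicates for 31 of them, in 2 replicates for AHDC1 and in none for DLX3, beside the 40.7% of all protein-coding genes. The median over the list was 5.18 normalised reads per kb, beside 3.85 over the 9 genes above and 1.54 over the 8466 genes, a set limited to genes with clusters in all 3 replicates. The genes with most normalised reads, not divided by length, were HNRNPUL1, HNRNPM and UBAP2L. HNRNPUL1 had 659, 550 and 659 normalised reads, a mean of 623 ± 63.1 (SD, n = 3) or 13.7 per kb. HNRNPM had 503, 431 and 587, a mean of 507 ± 78.3 or 11.4 per kb. UBAP2L had 380, 427 and 528, a mean of 445 ± 75.9 or 8.67 per kb. All 3 lay below DAZAP1 per kb. AHDC1 had 3 clusters in replicate 1, 0 in replicate 2 and 1 in replicate 3.

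Of 5 partners of HEXIM1 in the DNA-PK and NEAT1 complex, 4 had clusters in all 3 replicates, beside 40.7% of all protein-coding genes. PRKDC, the catalytic subunit of DNA-PK, had 746, 681 and 692 normalised reads, a mean of 706 ± 34.6 (SD, n = 3) or 3.78 per kb. XRCC5, a subunit of Ku, had 473, 480 and 850, a mean of 601 ± 216 or 6.08 per kb, with replicate 3 far above the others. MATR3 itself had 429, 181 and 394, a mean of 334 ± 134 or 5.77 per kb. CGAS, the DNA sensor, had 1 cluster in replicate 1, 2 in replicate 2 and none in replicate 3. Of 6 genes of P-TEFb and its 7SK regulators, 3 had clusters in all 3 replicates, a share near the 40.7% of all protein-coding genes. The cyclin gene CCNT2 had 6.08, 5.86 and 8.70 normalised reads per kb in replicates 1, 2 and 3, a mean of 6.88 ± 1.58 (SD, n = 3). The cyclin gene CCNT1 had 0.871, 2.16 and 4.23, a mean of 2.42 ± 1.69, which is 1.52 without replicate 3. MEPCE, the gene of the 7SK capping enzyme, had 5.23, 5.19 and 23.5, a mean of 11.3 ± 10.5, which is 5.21 without replicate 3. CDK9 had clusters in 2 replicates, LARP7 in 1, and HEXIM2, the paralogue of HEXIM1, in none.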

How the data were processed

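The deposited tables, 1 per replicate, list read clusters with position, strand, annotation class, gene name and sequence. The build is hg38, per the submitters' processing notes. The aligner, cluster caller and annotation release are not given in the sources used here. Reads, distinct reads and conversion events are raw counts, per the file headers. T-to-C reads are deposited as a fraction per cluster, from 0 to 1, and are given here in percent. For some clusters the fraction is not a whole number of the listed reads, such as 0.909 of 13 reads at chr11:65431515-65431568. Its base can therefore differ from the read count. For shares of reads, each fraction was weighted by the read count of its cluster. The deposited conversion specificity on a log10 scale and the deposited mode score were not used. The tables held 133088, 131679 and 124040 clusters with 1649124, 1506682 and 1532602 reads in replicates 1, 2 and 3, at least 4 reads, 2 conversion locations and 20 nt per cluster, and a median of 9, 8 and 9 reads. The depth of the whole libraries is not known here. The RNA-seq that the design text names was not analysed here. Reads carry no molecular identifiers, so counts can include copies. The tables give no expression, so the labelled cell line was not checked against marker genes.

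Reads per gene were divided by the 1448303, 1328093 and 1358924 reads in clusters with a gene name and multiplied by 1000000. Clusters overlapping by at least 1 nt on a strand, within or across replicates, were merged into sites. Spans, exons and introns come from GENCODE release 44, whose canonical transcript is called the main transcript. The sequences of all 357 clusters of the genes and of MALAT1 equalled hg38. For differences within replicates an exact two-sided sign-flip permutation test was used, whose smallest p is 0.25. The scripts (Python 3.11.15, numpy 2.4.6, pandas 2.3.3, matplotlib 3.10.9) were tested on simulated clusters.

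The genes and lists were chosen with earlier results of these data known. Named were the 9 genes, MALAT1, the 3 genes nearest to NEAT1, in each further list the 3 genes with most normalised reads and those with no cluster where 5 or fewer, the 3 strongest clusters of each gene and the sites found in all 3 replicates. AHDC1, CGAS, CDK9, LARP7, the genes below NEAT1 in T-to-C share, the strongest cluster of a replicate where it was not among the 3, the introns named and the SFPQ and NONO sites in 2 replicates were named after their values were seen. Alternatives were stricter cluster sets, choice of clusters by position, distinct reads, another denominator, other overlaps, other measures of conversion, intron share and ATCTT, and leaving out each replicate.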

Additional observations from a re-analysis of the deposited data

Results flagged for a closer look

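Clusters with no gene name or another name lay inside the annotated spans of 4 genes and entered none of the levels above, except where SFPQ was counted with them. They are listed because they lay outside the measurement, and there is no control library to set them against. In the span of SFPQ, same strand, 8 clusters with no name held 223 reads, 39 in replicate 1, 0 in replicate 2 and 184 in replicate 3. In the span of NONO, same strand, 4 clusters with no name held 81 reads, 53, 0 and 28 by replicate. In the span of RBM14, same strand, 4 clusters named for the read-through gene RBM14-RBM4 held 118 reads, 59, 0 and 59 by replicate. Replicate 2 had none in any of these 3. In the span of HEXIM1, 3 clusters on the opposite strand, named AC002117.1 or unnamed, held 21 reads, 0, 16 and 5 by replicate.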

How the results depend on the processing

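No paired analysis was possible because the 3 replicates form 1 group and no second group shares their numbers. The differences above were taken within each replicate. The genes together had 1544 normalised reads (1503 to 1593 on leaving out each replicate). This became 1808 with clusters of at least 3 distinct reads, 1790 with at least the median reads, 1680 with distinct reads and 1362 per 1000000 reads in all clusters. The difference of the set in conversion per T, -0.0014 points, became 0.582 in clusters of 3 or more distinct reads and 0.435 in those at or above the median, and ran from -0.154 to 0.264 on leaving out a replicate. Counted per read, in place of per T, it was -10.3 ± 1.68 points. The difference of the set in recurrence, 1.35 points, became -0.682 with an overlap of 50% of both clusters and ran from -3.62 to 4.10. NEAT1 recurrence ran from 0.0873 to 20.8 points above all clusters and was 7.21 ± 11.0 with the 50% overlap. On leaving out a replicate, the intron share difference ran from -13.1 to -10.4, that of ATCTT from -3.74 to -2.54, NEAT1 reads from 197 to 252, the number of the 9 genes with clusters in all replicates stayed at 8 and that of the wider list ran from 31 to 32. The wider list fell to 26 with at least 2 clusters per replicate. The signs of the intron, ATCTT and NEAT1 recurrence differences did not turn in any alternative run. The NEAT1 T-to-C difference was rerun only against the 4 narrower references, and its sign did not turn there. The causes of the changes were not tested. Of 339 clusters 54 rested on fewer than 3 distinct reads, and binding below the tables' minimum was not seen.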
